A study of Mus musculus with 10 samples.

Results

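The net change from day 0 to day 14 in mouse embryonic stem (ES) cells that lack Rybp was read from 3 of the 10 RNA-seq libraries of a study of differentiation toward the heart. Of these, 1 library came from Rybp null mutant ES cells at day 0 and 2 came from cultures made from such cells at day 14. They were chosen by their labels, not by any measured value. Both groups were labelled Rybp null mutant and had the strain background 129x1 x 129S1. The day 0 cells were kept in serum and leukemia inhibitory factor, and the later cultures came from hanging-drop embryoid bodies, which the labels call ES-derived cardiac cultures. Wild type cells of the same background were sampled in the same way, with 1 library at day 0 and 2 at each of days 8 and 14, and Rybp-null cultures also had 2 libraries at day 8. The sources used here do not say how the mutation was made or whether the line is a single clone. The day 14 cultures can hold several cell types, so in bulk RNA fewer cells of a type and less RNA per cell cannot be told apart. Nothing in the labels says that replicates were separate cultures, so p-values measure the spread between these samples, which may be technical.

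RYBP binds the ubiquitin ligases RING1 and RNF2 and is a subunit of variant Polycomb repressive complex 1 (PRC1), which ubiquitinates histone H2A and holds developmental genes silent. A form of that complex with MGA, MAX, E2F6 and L3MBTL2 sits at germline genes in ES cells. As ES cells differentiate in embryoid bodies they lose the pluripotency network, pass through mesoderm and give rise to mixed cultures. Cardiomyocytes in such cultures are recognised by the sarcomere, in which myosin thick filaments slide along actin thin filaments and titin spans from the Z-disc to the middle.

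Library totals were 6890792 counts at day 0 and 3311037 and 3951179 at day 14, and levels are in CPM, the count of a gene relative to the scaled total of its library. After genes with few counts were left out, 15819 of 36191 genes were tested with edgeR's quasi-likelihood test, and the call threshold was an adjusted p of 0.05. The lone day 0 library was assumed to vary like the replicated groups. From day 0 to day 14, 3765 genes (23.8%) rose and 3563 (22.5%) fell, 46.3% in all. Of these, 3467 rose and 3032 fell at least 2-fold, and 1578 rose and 946 fell at least 8-fold. The median log2 fold change over all genes tested was 0.08. With library totals as the only scaling that median was 0.37 and 62.5% of the called genes were higher, against 51.4% in the main fit, while 0 genes called in the main fit changed direction. The 2 day 14 libraries had a Spearman correlation of 0.961 over genes, and each was further from the day 0 library (0.704 and 0.697). They differed by more than counting noise, and 56 of the 9383 genes with at least 10 CPM in either of them were at least 4-fold apart. Between days 8 and 14 the null cultures had 678 higher (4.29%) and 539 lower genes (3.41%). In wild type cells 3805 genes (24.1%) rose and 3292 (20.8%) fell from day 0 to day 14.

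Rybp itself (chromosome 6) was at 0.508 CPM in the null ES cells and at 1.13 and 0.494 CPM in the null cultures of day 14, which is 3, 4 and 2 counts. The pooled ratio of day 14 to day 0 was 1.56 (95% counting interval 0.332 to 9.61), and the wild type libraries held 76.2 CPM at day 0 and 19.5 and 23.5 CPM at day 14. The null libraries were therefore low at both ends of the course, as labelled. Yaf2, the paralog that can take the place of Rybp in variant PRC1, went from 7.28 to 14.9 and 15.1 CPM and did not pass (adjusted p = 0.053, with a log2 fold change of 1.04 ± 0.41 SE). It passed when library totals were the only scaling (adjusted p = 0.0192), with a minimum count of 30 (0.0421) and without day 8 replicate 1 or 2 of the null cultures (0.0411 and 0.0443). Both day 14 libraries lay above the day 0 library.

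The levels of 12 genes in every library of both genotypes are drawn by day in the plot of levels by library.

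**Figure D1:**
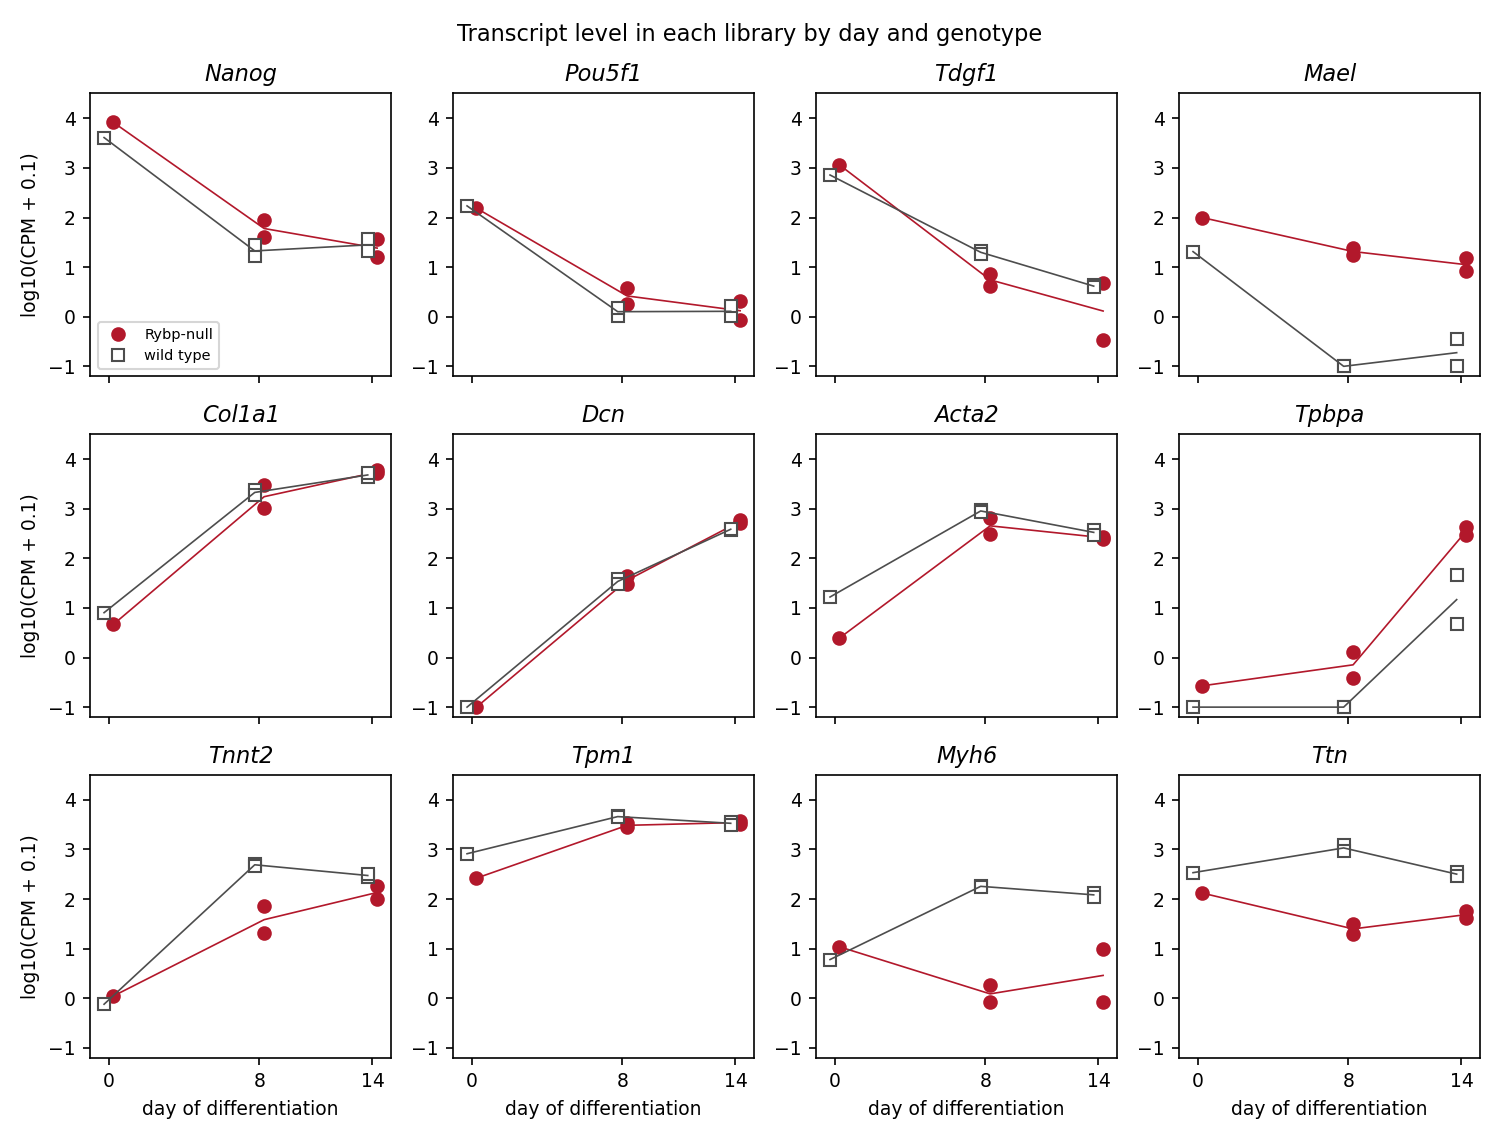
Level of 12 genes as log10(CPM + 0.1) against the day of differentiation. Filled red circles are Rybp-null libraries, open grey squares are wild type libraries (1 at day 0, 2 at days 8 and 14 each), and lines join the means of the plotted values. Nanog falls and Col1a1 rises in both genotypes, while Myh6 in the null cultures of day 14 stands at 9.85 and 0.742 CPM and in the wild type cultures at 132 and 112 CPM.

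The pluripotency network was lost almost whole. Of 31 tested genes of this list, 30 fell, 0 rose and 1 did not pass, beside 22.5% of all genes lower, and the list's median log2 fold change was −6.53, or −5.30 when genes that reached 0 counts were set to their bound. The homeobox factor Nanog went from 8244 CPM to 36.0 and 16.1 CPM (log2 fold change −8.31, SE 0.63, adjusted p = 2.30e-05). The POU factor Pou5f1, also known as Oct4, went from 154 to 1.97 and 0.742 CPM (−6.83, SE 0.45, adjusted p = 4.04e-07). Every day 14 value of these genes lay far under the day 0 value. The Nodal co-receptor Tdgf1 fell from 1151 to 4.79 and 0.247 CPM, and its close copy Tdgf1-ps2, which may share its reads, from 567 to 1.41 and 0.494 CPM. Fgf4, the growth factor that primes ES cells to differentiate, was at 27.4 CPM at day 0 and at 0 counts at day 14, at least 69.4-fold lower. The germline factor Prdm14 was at least 51.0-fold lower and Dppa3, a maternal factor, at least 40.7-fold lower. Lin28a, which blocks let-7 maturation, was the member that did not pass (145.5 CPM against 34.9 and 5.93 CPM, adjusted p = 0.076). Without day 14 replicate 1 it passed (−4.61, adjusted p = 0.0176). Among 8 genes of formative and primed epiblast 6 fell and 2 rose. The homeobox factor Otx2 fell from 87.7 to 2.53 and 1.48 CPM, and the SoxC factor Sox4 rose from 10.7 to 135 and 230.3 CPM.

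The 12 largest falls among genes with at least 50 CPM at day 0 were mostly of genes with close copies. They comprised the predicted genes Gm8991, Gm13167, Gm5662, Gm6083 and Gm6311, the pseudogenes Rps2-ps13, Rps6-ps3 and Tdgf1-ps2, the zinc finger genes Zfp600, Zfp981 and Zscan4c, and Dnmt3l, the cofactor of de novo DNA methylation. Of these Gm8991 went from 273 CPM to 0 counts, at least 691-fold lower, and Rps6-ps3 from 201 to 0 and 0.247 CPM. Such copies can share reads, so their values are uncertain. The 2-cell stage list is made largely of such families: 6 of its 8 tested genes fell and 0 rose, with a median of −5.94, or −4.14 with bounds. Zscan4c, a telomere regulator of the 2-cell embryo, went from 118 CPM to 0 counts in both day 14 libraries, at least 298-fold lower, and Zscan4f from 178 to 0 and 0.989 CPM.

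Germ cell genes fell as a group. Of 36 tested, 30 fell, 0 rose and 6 did not pass, with a median of −2.96. The summed level of the 36 genes was 2786 CPM at day 0 and 576 and 401 CPM at day 14. The translation regulator Dazl went from 105 to 1.13 and 0.247 CPM (log2 fold change −7.24, SE 0.58, adjusted p = 1.53e-06). Stra8, the gate to meiosis, went from 36.55 to 0.281 and 0.247 CPM, a pooled ratio of 139 (38.0 to 1154), and the germ cell factor Sohlh2 had a ratio of 157 (27.6 to 6246). The meiotic chromosome axis gene Hormad1 was at 15.6 CPM at day 0 and 0 counts at day 14, at least 39.4-fold lower. Other members were reduced but still counted at day 14. The helicase Ddx4 stood at 149 CPM at day 0 and at 13.5 and 3.95 CPM at day 14 (adjusted p = 1.88e-04, log2 fold change −4.11 with SE 0.55). The piRNA factor Mael stood at 99.5 CPM and then 8.16 and 15.1 CPM (−3.09, SE 0.40), and Rnf17 at 296 and then 32.1 and 30.4 CPM (−3.24, SE 0.31). Tex19.1, a placental and germline gene, was at 686 CPM and then 165 and 90.0 CPM and did not pass (adjusted p = 0.0986). It passed in a fit of the 3 compared libraries alone (adjusted p = 2.79e-04) and without either wild type day 14 library (adjusted p = 2.43e-04 and 2.54e-04). In wild type cells 26 members fell and 0 rose, and the 36 genes summed to 1195 CPM at day 0 and to 222 and 146 CPM at day 14.

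Since MGA and MAX pair on the E-box CACGTG and E2F6 binds the core TCCCGC, the 250 bases before the start of each germ cell gene were searched for both on both strands, in RefSeq windows of GRCm38.p6. Windows were found for 30 of the 36 genes. The E-box was in 12 of the 30 (40.0%) and in 6.05% of all 27025 windows, and the E2F6 core was in 10 (33.3%) and in 16.9% of all. Both were in 4 germ cell windows, and in 397 of all windows. These 4 are printed 5′ to 3′ on the strand of the gene, ending at the base before the start, with both motifs in capitals (GCGGGA is the E2F6 core read on the other strand). The Ddx4 window is chr13:112652311-112652560 on the minus strand, the Mael window chr1:166238745-166238994 on the minus strand, the Sycp3 window chr10:88459337-88459586 on the plus strand and the Hormad1 window chr3:95559427-95559676 on the plus strand.
Ddx4: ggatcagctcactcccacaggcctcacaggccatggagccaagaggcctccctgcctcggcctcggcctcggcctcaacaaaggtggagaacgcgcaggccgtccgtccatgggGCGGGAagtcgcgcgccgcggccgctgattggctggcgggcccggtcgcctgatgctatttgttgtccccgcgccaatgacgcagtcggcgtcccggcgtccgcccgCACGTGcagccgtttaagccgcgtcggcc
Mael: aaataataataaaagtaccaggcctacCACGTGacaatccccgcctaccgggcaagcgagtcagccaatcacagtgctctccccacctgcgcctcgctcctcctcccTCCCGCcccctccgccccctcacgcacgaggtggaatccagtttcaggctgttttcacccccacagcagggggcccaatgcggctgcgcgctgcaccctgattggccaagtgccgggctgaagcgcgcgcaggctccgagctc
Sycp3: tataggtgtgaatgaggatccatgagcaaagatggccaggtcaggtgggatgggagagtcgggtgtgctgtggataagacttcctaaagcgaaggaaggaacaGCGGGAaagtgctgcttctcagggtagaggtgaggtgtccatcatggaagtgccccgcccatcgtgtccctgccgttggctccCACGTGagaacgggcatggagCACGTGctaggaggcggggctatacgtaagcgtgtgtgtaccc
Hormad1: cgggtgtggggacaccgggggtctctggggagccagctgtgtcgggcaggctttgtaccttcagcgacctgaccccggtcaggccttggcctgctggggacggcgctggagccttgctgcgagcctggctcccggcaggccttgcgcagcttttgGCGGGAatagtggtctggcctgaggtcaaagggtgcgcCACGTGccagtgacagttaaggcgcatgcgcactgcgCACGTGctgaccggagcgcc
The E-box begins 29 bases before the start in Ddx4 and 223 bases before it in Mael. Sycp3 has E-boxes at 64 and 43 bases and Hormad1 at 57 and 20 bases. All 4 genes fell over the null course, as did 30 of the 36 tested germ cell genes (83.3%). Sycp3, a rod of the synaptonemal complex, went from 91.4 to 17.2 and 7.91 CPM (log2 fold change −2.87, SE 0.51, adjusted p = 6.99e-04). Whether the motifs bear on the falls was not tested. A match is a stretch of letters and not a measured binding site.

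The largest rises were of the extracellular matrix. Of 37 tested genes of fibrillar collagens and stromal matrix 36 rose, 0 fell and 1 did not pass, beside 23.8% of all genes higher, with a median of 6.22, or 5.65 when genes with 0 counts at day 0 were set to their bound. The collagen chain Col1a1 went from 4.57 CPM to 5124 and 5917 CPM (log2 fold change 10.23, SE 0.89, adjusted p = 4.81e-05). Col1a2 went from 1.69 to 4884 and 4920 CPM, and Col3a1 from 0.508 to 1614 and 1512 CPM, a pooled ratio of 3072 (1051 to 14900). The day 14 libraries lay close together for these chains. Several matrix genes had 0 counts at day 0. Dcn, a small proteoglycan that binds collagen fibrils, reached 523 and 588 CPM, at least 1098-fold higher, and the related Lum 122 and 73.9 CPM, at least 190.3-fold. Col5a2 reached 318 and 540 CPM (at least 859-fold), Col6a3 183 and 151 CPM (at least 327-fold) and Col6a1 81.6 and 108 CPM (at least 189-fold). Postn, a matricellular protein of heart valves and fibroblasts, was at 0 counts at day 0, at 2568 and 2026 CPM at day 8 and at 947 and 383 CPM at day 14. It thus rose over the whole course, at least 1273-fold, and fell after day 8. Other genes among the 12 largest rises were the secreted matrix protein Ccdc80, the membrane protein Tmem176b, the chloride channel regulator Clca3a1 and C3ar1, the receptor for complement C3a on myeloid cells. The metalloprotease inhibitor Timp1 was the matrix gene that did not pass (2.03 CPM, then 1.69 and 5.44 CPM). Of the 37 genes 20 also rose and 2 fell between days 8 and 14.

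Smooth muscle genes rose without exception among the 16 tested (median 3.38). Smooth muscle actin Acta2 went from 2.37 to 269 and 250.4 CPM (log2 fold change 6.76, SE 0.53, adjusted p = 1.59e-06), with 644 and 316 CPM at day 8. The kinase Mylk, which switches on smooth muscle myosin, went from 5.75 to 143 and 346 CPM (5.40, SE 0.86). Smoc2 and the enteric actin Actg2 had 0 counts at day 0, and Smoc2 was at least 114-fold and Actg2 at least 46.9-fold higher. The smooth muscle myosin Myh11 was low throughout, at 0.677 CPM and then 3.66 and 2.97 CPM. Mesenchymal genes were alike in direction: 13 of 17 rose and 0 fell, among them the repressor Zeb2 (1.52 to 182 and 220.0 CPM), the cadherin Cdh11 (3.89 to 387 and 515 CPM), the hyaluronan receptor Cd44 and the limb and craniofacial factor Prrx1. The fibroblast marker Thy1 did not pass (6.26 CPM, then 5.07 and 2.72 CPM).

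Transcription factors of the heart rose in most cases. Of 27 tested 19 rose, 0 fell and 8 did not pass, with a median of 3.48. Hand2 had 0 counts at day 0 and was at 31.2 and 58.6 CPM at day 14, at least 90.2-fold higher. Tbx5, the factor of the left ventricle and atria, went from 0 counts to 18.9 and 9.89 CPM, at least 27.7-fold. Gata4 went from 2.20 to 38.9 and 31.6 CPM (adjusted p = 6.34e-05, log2 fold change 3.98 with SE 0.52), and the cofactor Meis1 from 0.169 to 85.9 and 82.8 CPM. The cardiac progenitor factor Isl1 was at 0.169 CPM at day 0, 3.63 and 5.76 CPM at day 8 and 0.282 and 0 CPM at day 14, so both ends of the course lie at the floor and no fold is given. Nkx2-5 had 0 counts in all 5 null libraries and at most 1 count in a wild type library, so its level cannot be read in either genotype. The muscle methyltransferase Smyd1 did not pass (6.94 CPM, then 7.32 and 10.1 CPM).

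Sarcomere genes are described by filament. In the thin filament 6 of 9 tested genes rose, 0 fell and 3 did not pass (median 2.27). Cardiac troponin T, Tnnt2, went from 1.02 to 102 and 181 CPM (log2 fold change 7.08, SE 1.02, adjusted p = 0.0007665). Slow troponin I, Tnni1, went from 0.677 to 9.57 and 16.6 CPM (4.21, SE 0.85), and the tropomyosin Tpm1, which smooth muscle and fibroblasts also make, from 264 to 3210 and 3833 CPM (3.74, SE 0.24, adjusted p = 3.59e-07). The pointed-end cap Tmod1 rose (1.27, SE 0.42, adjusted p = 0.0243) but not without day 14 replicate 2 (0.96, adjusted p = 0.12). Cardiac troponin I, Tnni3, did not pass (2.20 CPM, then 4.22 and 0.989 CPM). Cardiac actin Actc1 rose from 0 counts to 9.29 CPM in day 14 replicate 1 and 1.98 CPM in replicate 2, at least 10.6-fold. Tested against a change of 2-fold, 3 of the 9 genes were higher.

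In the thick filament 4 of 9 tested genes rose, 0 fell and 5 did not pass (median 2.79, or 1.82 with bounds), and the highest day 14 level among the 4 was the 10.4 CPM of Mylk3 in replicate 2. The cardiac myosin heavy chain Myh6 was at 10.8 CPM at day 0 and at 9.85 and 0.742 CPM at day 14 (adjusted p = 0.285, log2 fold change −1.08 with SE 0.77). Replicate 1 stood near the ES cell level and replicate 2 far under it. Without replicate 1 Myh6 fell (−3.81, adjusted p = 0.0002968). The slow myosin Myh7 was at 0.508 CPM and then 3.94 and 0.494 CPM, and the light chains Myl2, Myl3 and Myl7 reached at most 2.25 CPM at day 14. Myl4, the atrial and embryonic light chain, rose from 0 counts to 4.79 and 3.71 CPM. The M-band protein Myom1 rose from 1.02 to 6.76 and 7.66 CPM, and the myosin kinase Mylk3 and the myosin binding protein Mybpc3 rose from 0.508 CPM and from 0 counts.

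Titin, Ttn, the molecular spring of the sarcomere, fell from 132 CPM to 40.8 and 57.8 CPM (log2 fold change −1.42, SE 0.28, adjusted p = 0.00148). It was lower still at day 8 (19.8 and 31.4 CPM) and rose from there. Against a 2-fold change its fall did not pass (adjusted p = 0.08755). Among 17 genes of titin and the Z-disc 8 rose, 3 fell and 6 did not pass (median 1.65, or 1.33 with bounds). The small heat shock protein Cryab rose from 1.02 to 41.4 and 49.7 CPM, filamin C (Flnc) from 8.46 to 87.8 and 127 CPM, and Fhl2 from 1.02 to 17.7 and 30.4 CPM. The stretch-responsive Ankrd1 rose from 0.677 to 15.2 and 30.4 CPM, but did not pass without day 14 replicate 2 (adjusted p = 0.0837). The Z-disc core protein Actn2 stayed low, at 1.52 CPM and then 1.69 and 1.24 CPM, and Pdlim5 did not pass (44.0 CPM, then 49.3 and 80.8 CPM).

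Genes of calcium cycling were divided as well. Of 18 tested 9 rose, 1 fell and 8 did not pass (median 1.67). The calcium channel subunits Cacna1c and Cacna1g rose, with pooled ratios of 94.5 (25.9 to 785) and 119 (21.0 to 4731), as did the sodium-calcium exchanger Slc8a1, with 84.8 (28.7 to 413). The calcium pump of the sarcoplasmic reticulum, Atp2a2, fell from 588 to 231 and 276 CPM (log2 fold change −1.21, SE 0.18, adjusted p = 2.00e-04). The release channel Ryr2 stood at 7.95 CPM and then 15.8 and 11.6 CPM and did not pass. Its regulators Casq2, Trdn and Pln were at most 1.97 CPM at day 14. Among 13 cardiac channels and connexins 3 rose and 2 fell, near the background in both directions: the potassium channels Kcnj2 (1.35 to 38.6 and 17.8 CPM) and Kcnd3 and the gap junction gene Gja1 were higher, and Kcnj3 was among the lower ones. Of 7 tested genes of cardiac hormones and muscle metabolism 1 rose and 1 fell, and of 7 skeletal muscle genes 2 rose and 3 fell. The first of these lists had 0 risers with any replicated library but wild type day 14 replicate 2 and null day 8 replicate 2 left out, and 1 skeletal muscle gene fell without null day 14 replicate 2.

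The labels call the later samples cardiac cultures. Of 9 cardiomyocyte markers Nkx2-5 was at 0 counts in all 3 libraries and Nppa was at most 0.508 CPM. Wild type libraries also held at most 1 count of Nkx2-5, so it does not set the null cultures apart. The 9 summed to 155 CPM at day 0, most of it from Ttn, and to 175 and 253 CPM at day 14, most of it from Tnnt2 and Ttn. Long genes weigh more in such sums, and the exons of Ttn span 116825 bases. Per kilobase of exon Ttn was at 1.13 CPM at day 0 and at 0.349 and 0.495 CPM at day 14. Tnnt2 was at 0.131 CPM per kilobase and then at 13.2 and 23.3. The 6 ES cell markers summed to 9867 CPM at day 0 and to 44.2 and 20.3 CPM at day 14. Most of each sum came from Nanog (8244 CPM, then 36.0 and 16.1 CPM). The 5 stroma markers summed to 6.77 CPM at day 0 and to 13090 and 13320 CPM at day 14.

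The 40 lists are set side by side in the plot of gene lists, with the share of all genes as dotted lines.

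**Figure D2:**
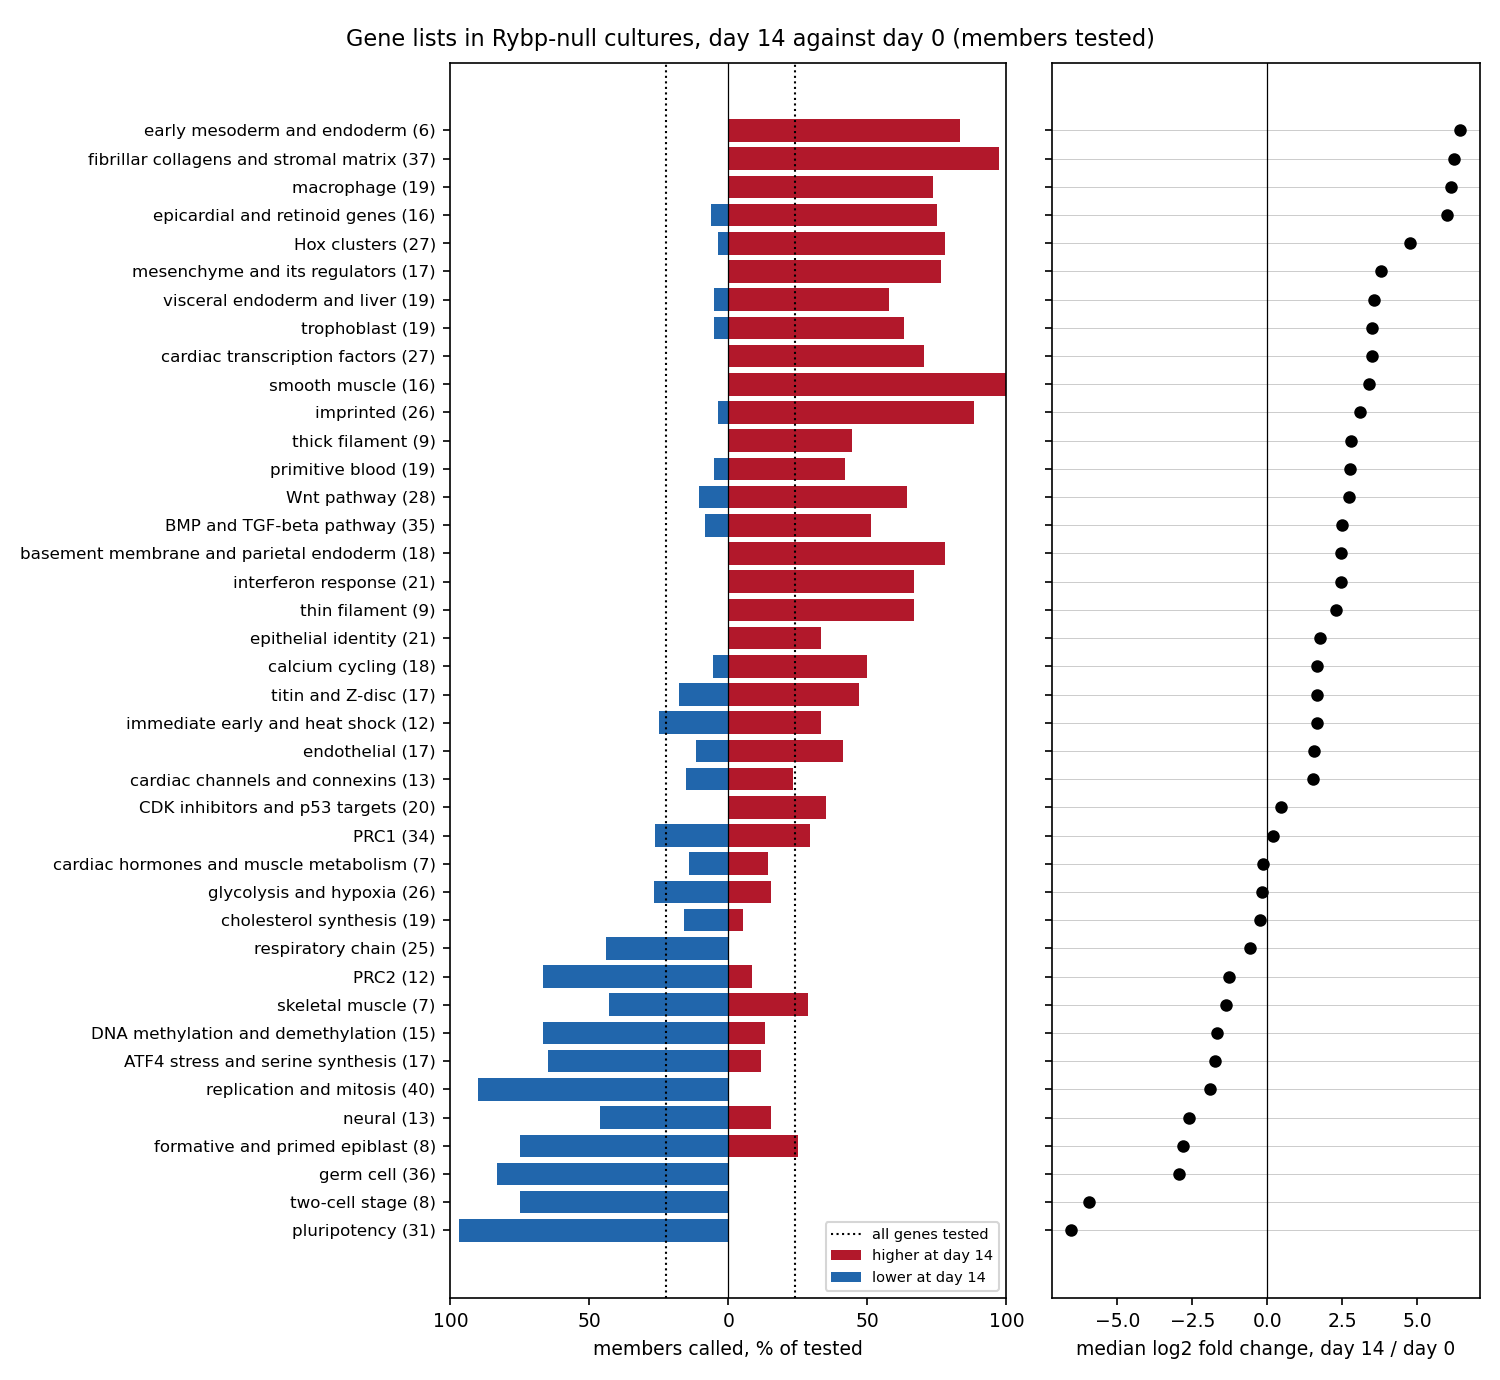
Left, share of each list's tested members that were higher (red, to the right) or lower (blue, to the left) at day 14 than at day 0 in Rybp-null libraries, in %; dotted lines mark all genes tested (23.8% and 22.5%). Right, the list's median fitted log2 fold change; the number tested stands in parentheses. Pluripotency (−6.53) and early mesoderm and endoderm (6.43, with 6 of 17 genes tested, or 3.13 with bounds) stand at the ends.

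The course of the wild type cells, which shares no library with the null course, was set beside it. Of the genes called in the null course 5532 were called in the same direction in wild type cells and 8 in the opposite direction. The 8, named after their values were seen, were Lrp2, Ryr3, Enpp2 and Cemip2, higher at day 14 in null and lower in wild type, and Sorbs2, Scml4, Igsf5 and Erlin1, the reverse. The difference of the net change itself was tested for every gene, and edgeR called 0 genes (0%). At an unadjusted p under 0.05 there were 1411 genes (8.92%), 506 with the null change above and 905 below, and the lowest adjusted p was 0.0665, of Cntln, a centrosomal protein. DESeq2 called 46 genes with the null change above and 27 below, and edgeR without a filter on low counts 120 and 181. Among the genes named here DESeq2 called Cdkn1c, Tpm1, Gata3, Acta2, H19, Col5a2, Tgfb2, Rnf17, Cemip2 and Lrp2 above, and Plagl1, Cntln and Sorbs2 below. Without null day 8 replicate 1 the counts were 19 above and 23 below, and without replicate 2 they were 20 and 24. Without null day 14 replicate 1 they were 4 and 7, without replicate 2 they were 4 and 3, and without wild type day 14 replicate 1 they were 5 and 0.

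Against that test, members of several lists are given side by side as values. The 9 tested thick filament genes summed to 14.2 CPM at day 0 and to 32.9 and 24.5 CPM at day 14 in null cells, and to 9.90 CPM and then 285 and 229.5 CPM in wild type cells. Members such as Myl3 and Myl7 had at most 3 counts in each of the 3 null libraries compared, so no tally of differences over the list is given. Wild type Myh6 went from 5.94 to 132 and 112 CPM, and the difference of the log2 changes was −5.43 (SE 1.13, adjusted p = 0.153). It passed without null day 14 replicate 1 (−8.16, adjusted p = 4.15e-04) and without replicate 2 (−4.49, adjusted p = 0.00862). For Ttn, wild type levels were 341 CPM and then 347 and 292 CPM. For Tnnt2 the wild type went from 0.66 to 281 and 318 CPM, and the difference was −1.68 (adjusted p = 0.91). Tpm1 moved the other way, with a null change 1.70 larger (adjusted p = 0.0966), from a lower day 0 level than the 821 CPM of wild type. It passed without null day 8 replicate 1 or 2 (adjusted p = 0.0296 and 0.0305) and without null day 14 replicate 1 (0.0474). The 16 smooth muscle genes summed to 793 CPM and then 7603 and 8685 CPM in null cells, and to 896 CPM and then 5915 and 5269 CPM in wild type cells. The 19 macrophage genes summed to 272 and 343 CPM at day 14 in null and to 770 and 882 CPM in wild type cells. These sums were not tested.

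**Figure D3:**
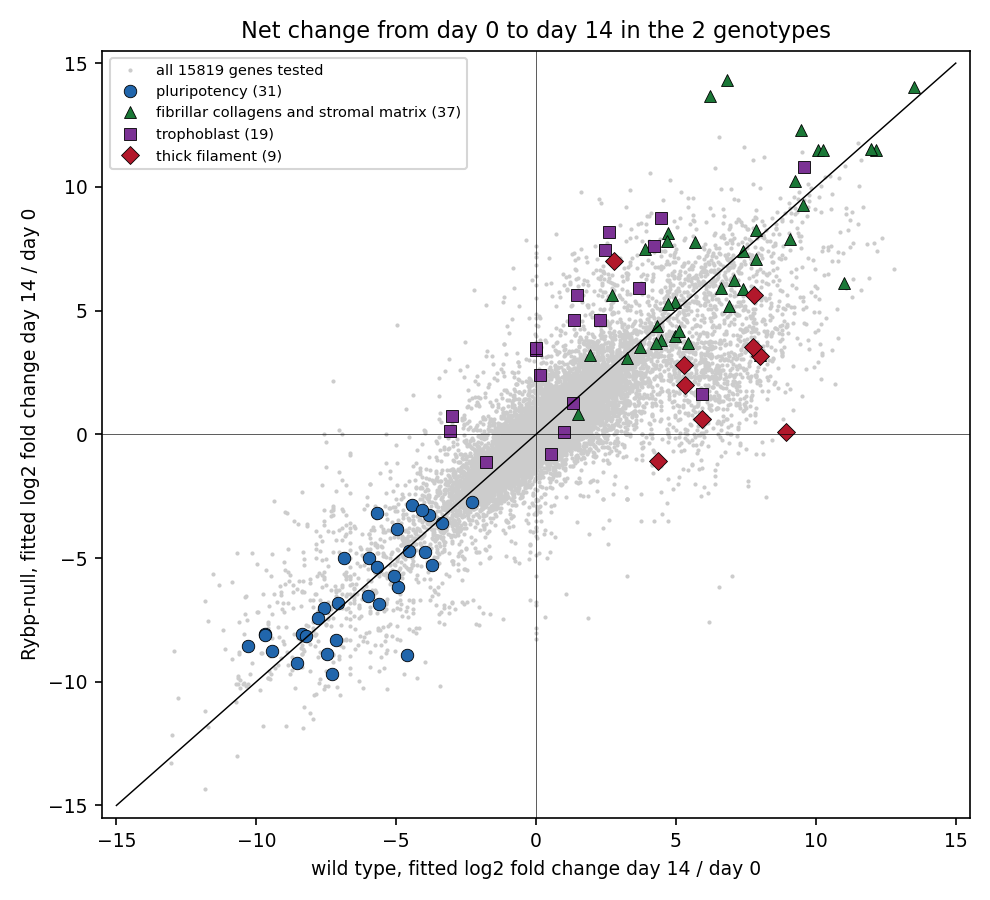
Fitted log2 fold change from day 0 to day 14 in Rybp-null (vertical) against wild type cells (horizontal) for the 15819 genes tested (grey), with the members of 4 lists coloured; the line marks equal changes. Pluripotency genes lie at the lower left and stromal genes at the upper right in both genotypes, and Myh6, a thick filament gene, lies 5.43 under the line.

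Imprinted genes rose nearly together. These genes are transcribed from the allele of a single parent and many are growth regulators of the embryo and placenta. Of 26 tested 23 rose, 1 fell and 2 did not pass (median 3.10). Igf2, the fetal growth factor, went from 23.4 to 11890 and 15810 CPM (adjusted p = 1.18e-07, log2 fold change 9.21 with SE 0.48), and the neighbouring noncoding RNA H19 from 51.3 to 17620 and 18020 CPM (8.44, SE 0.29). Dlk1, a Notch ligand relative of the same domain as Meg3, went from 2.03 to 879 and 1528 CPM. Plagl1, a zinc finger factor on chromosome 10, went from 4.91 to 155 and 299 CPM (5.52, SE 0.43, adjusted p = 1.59e-06) and was already at 161 and 148 CPM at day 8. In wild type cells Plagl1 went from 66.3 to 20110 and 22690 CPM, and the difference of the log2 changes was −2.81 (adjusted p = 0.0966). It passed without day 14 replicate 1 of the null cultures (−2.41, adjusted p = 0.031) and without replicate 2 (−3.36, adjusted p = 0.00688). Meg3, a noncoding RNA on chromosome 12, went from 24.5 to 142 and 150.5 CPM in null (2.57, SE 0.33) and from 347 to 2349 and 1858 CPM in wild type cells, a difference of −0.03 (adjusted p = 1). Null and wild type levels of Plagl1 and Meg3 thus stood apart at both ends of the course. Cdkn1c, a brake on the cell cycle, rose from 4.40 to 311 and 199 CPM in null, with a difference from wild type of 3.06 (adjusted p = 0.0966). That difference passed without null day 14 replicate 1 or 2 (adjusted p = 0.0439 and 0.0109) and without null day 8 replicate 1 or 2 (0.0296 and 0.0305). The member that fell was Magel2, and Phlda2 and Impact did not pass. The antisense transcript Airn overlaps Igf2r, and without strand their reads cannot be told apart.

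Trophoblast genes rose in 12 of 19 cases and fell in 1, with a median of 3.49. These genes mark the placental lineage, which embryo-derived ES cells seldom form. Tpbpa, of the spongiotrophoblast, was at 0.169 CPM at day 0, 1.21 and 0.288 CPM at day 8 and 427 and 289 CPM at day 14, a pooled ratio of 2088 (374 to 82520). It passed (adjusted p = 0.0154), but not without a filter on low counts (adjusted p = 0.102) or without either null day 8 library (adjusted p = 0.0599 and 0.0622). The transcription factor Gata3 went from 0.508 to 121 and 68.0 CPM, with a ratio of 183 (62.3 to 888), and Plac1 from 0 counts to 15.2 and 13.1 CPM (at least 27.7-fold). Syna, which fuses the cells of the syncytium, rose from 0.677 to 63.1 and 23.2 CPM but did not pass without null day 14 replicate 1 (adjusted p = 0.05997) or without any 1 of the 4 day 8 libraries of both genotypes (0.0608 to 0.0929). Cdx2, which starts the lineage, was at 0 counts at day 0 and at most 0.282 CPM at day 14. All 19 genes were higher in day 14 replicate 1 than in replicate 2, with sums of 1845 and 1039 CPM, and without replicate 1, 6 of 17 tested genes rose. In wild type cells 2 members rose and 2 fell, and the sums were 735 and 386 CPM at day 14. At day 0 the 19 genes summed to 481 CPM in null and to 911 CPM in wild type cells.

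Visceral endoderm and liver genes showed the same split between the day 14 libraries. Of 19 tested 11 rose, 1 fell and 7 did not pass (median 3.56, or 2.67 with bounds), and 16 were higher in replicate 1. The lipoprotein Apob went from 3.72 to 233 and 47.0 CPM, the nuclear receptor Hnf4a from 0.677 to 22.0 and 4.45 CPM and the thyroxine carrier Ttr from 0 counts to 38.9 and 11.4 CPM. Without replicate 1, 5 of 18 genes rose, and Apob (adjusted p = 0.0517), Hnf4a (0.133) and the vitamin B12 receptor Cubn (0.0987) did not pass. Apob also did not pass without wild type day 8 replicate 1 or 2 (adjusted p = 0.0636 and 0.0605). Of 21 epithelial genes 7 rose and 0 fell, led by the keratins Krt19, Krt7, Krt18 and Krt8, and 19 were higher in replicate 1. E-cadherin, Cdh1, was at 274 CPM at day 0 and at 279 and 94.2 CPM at day 14 (adjusted p = 0.682). Over all genes 48.5% were higher in replicate 1. The genes with the largest ratios toward replicate 1 were Gabrp, Cldn6, Spon1, Apob and Ctsh, with Gabrp at 147 against 6.67 CPM. Those toward replicate 2 were Gm12840, Ptprq, Mgst1, Gpm6a and the mesothelial uroplakin Upk3b, with Upk3b at 39.4 against 128 CPM.

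**Figure D4:**
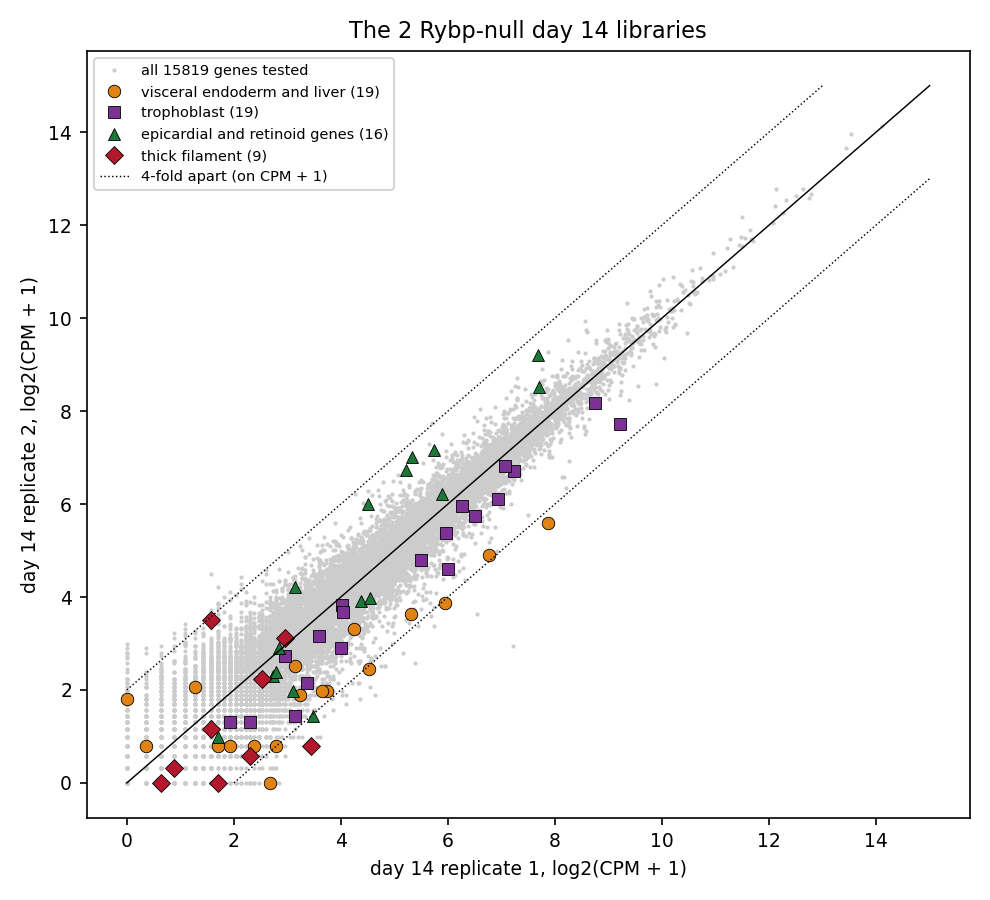
Level in the 2 Rybp-null day 14 libraries as log2(CPM + 1) for the 15819 genes tested (grey), with the members of 4 lists coloured; the solid line marks equal levels and the dotted lines a 4-fold ratio on that scale. All 19 trophoblast genes lie on the side of replicate 1, as do 16 of 19 visceral endoderm and liver genes.

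Genes of the epicardium, the outer layer of the heart, and of retinoid metabolism rose in 12 of 16 cases and fell in 1 (median 5.97, or 3.41 with bounds). The epicardial factor Wt1 went from 5.08 to 205 and 591 CPM (log2 fold change 6.28, SE 1.29, adjusted p = 0.0096). The retinal dehydrogenase Aldh1a1 and the basonuclin Bnc1 had 0 counts at day 0, and Aldh1a1 was at least 144-fold and Bnc1 at least 86.1-fold higher. Upk1b and Upk3b had pooled ratios of 595 (106 to 23530) and 257 (70.8 to 2124). The receptor Rara did not pass (12.2 CPM, then 19.7 and 14.1 CPM).

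Macrophage genes rose late. Of 19 tested 14 rose and 0 fell (median 6.12, or 3.93 with bounds), and 16 rose between days 8 and 14. The receptor Csf1r, on which macrophages depend, was at 0 counts at day 0, 1.45 and 0.863 CPM at day 8 and 35.5 and 34.3 CPM at day 14, at least 68.7-fold higher than at day 0. The protease Ctss was at least 65.6-fold higher and the complement gene C1qb at least 35.8-fold. Cd68 did not pass (15.2 CPM, then 32.1 and 27.7 CPM, adjusted p = 0.0506). Under some alternatives it passed, among them library totals as the only scaling (adjusted p = 0.0188) and a minimum count of 30 (0.0431). Primitive blood genes differed in their timing: 8 of 19 rose and 1 fell over the whole course, and 15 fell after day 8. The embryonic globin Hba-x was at 0 counts at day 0, 2300 and 604 CPM at day 8 and 2.25 and 0 CPM at day 14, and Hbb-bh1 was at 156 and 128 CPM at day 8 and at 0 counts at both ends. With day 14 replicate 1 or 2 left out in turn, 5 of the 19 blood genes rose. The hematopoietic factor Runx1 was among the risers, from 2.88 to 85.6 and 110 CPM, and Gata1 did not pass. Of 17 endothelial genes 7 rose and 2 fell, and 7 fell after day 8. VE-cadherin, Cdh5, rose from 0.677 to 55.7 and 38.1 CPM, while Pecam1, which ES cells also make, fell from 69.0 to 11.3 and 7.42 CPM.

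Patterning genes and signals rose more often than they fell. Of 27 tested Hox genes 21 rose and 1 fell, Hoxd1 (median 4.74, or 3.41 with bounds). Hoxb4 had 0 counts at day 0 and was at least 23.6-fold higher, and Hoxa13 went from 0.677 to 29.8 and 16.8 CPM. Of 28 genes of the Wnt pathway 18 rose and 3 fell (median 2.71). The ligand Wnt5a went from 2.88 to 85.3 and 111 CPM and the receptor Fzd1 from 0.846 to 54.9 and 46.5 CPM. The coreceptor Lrp6 did not pass (adjusted p = 0.0606), but passed under some alternatives, among them library totals as the only scaling (adjusted p = 0.00708) and a minimum count of 30 (0.0441). Of 35 genes of the BMP and TGF-beta pathway 18 rose and 3 fell (median 2.49). The ligands Tgfb2 (1.19 to 108 and 96.4 CPM) and Tgfb3 (1.19 to 99.1 and 126 CPM) rose, as did the joint factor Gdf6, at least 73.6-fold. Of 17 early mesoderm and endoderm genes only 6 had enough counts to be tested. Of these 5 rose, among them the growth factor receptors Pdgfra (1.69 to 242 and 209.8 CPM) and Kdr (1.35 to 47.3 and 22.0 CPM). Among the 6, 3 had 0 counts at day 0 and could only be called higher. Eomes stood lower at day 14 and did not pass (10.3 CPM, then 5.91 and 1.24 CPM). With a minimum count of 30, 3 genes of this list rose. Of 18 basement membrane and parietal endoderm genes 14 rose, among them Col4a1 and Col4a2, the chains of the basement membrane network. Of 13 neural genes 2 rose and 6 fell: Stmn2, a microtubule regulator of neurons, went from 307 CPM in the ES cells to 1.13 and 0.989 CPM.

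The machinery of cell division fell. Of 40 genes of replication and mitosis 36 fell, 0 rose and 4 did not pass (median −1.91), and 24 fell after day 8. Cyclin B1, Ccnb1, went from 175 to 21.7 and 20.5 CPM (log2 fold change −3.05, SE 0.28, adjusted p = 4.75e-06), with 42.3 and 60.4 CPM at day 8, and cyclin A2, Ccna2, from 400.4 to 56.3 and 57.3 CPM. Of 20 CDK inhibitors and p53 targets 7 rose (35%, beside 23.8% of all genes) and 0 fell, with a median of 0.46. Tested against a change of 2-fold, 4 rose. Among the 7, Cdkn1a, or p21, went from 49.2 to 179 and 225 CPM, and Cdkn2b from 0 counts to 6.19 and 23.2 CPM. The count was 4 without day 14 replicate 2, and 19 of the 20 genes were higher in that library than in replicate 1.

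Most tested genes of PRC2 and of DNA methylation fell, and PRC1 genes moved both ways. Of 34 PRC1 genes 10 rose, 9 fell and 15 did not pass, close to the background in both directions (median 0.19). The subunit Phc1 fell from 457 to 55.5 and 77.8 CPM and Cbx7, the main chromobox of ES cells, from 69.4 to 15.8 and 8.16 CPM, while Cbx6 rose from 9.64 to 29.3 and 55.9 CPM. The partners of RYBP in germline silencing were divided: Mga fell (1242 to 642 and 596 CPM, adjusted p = 0.0017), Pcgf6 fell (45.0 to 10.4 and 13.4 CPM), and Max and E2f6 did not pass. Of 12 PRC2 genes 8 fell and 1 rose (median −1.28), with the methyltransferase Ezh2 going from 605 to 114 and 105 CPM and its recruiters Jarid2 and Mtf2 from 745 to 102 and 106 CPM and from 1521 to 150.3 and 174 CPM. Of 15 genes of DNA methylation and demethylation 10 fell and 2 rose (median −1.68). Dnmt3l was at least 133-fold lower, the dioxygenase Tet1 went from 284 to 12.4 and 9.64 CPM, and the maintenance enzyme Dnmt1 did not pass (867 CPM, then 929 and 803 CPM).

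The lists of glycolysis and hypoxia, the respiratory chain and cholesterol synthesis had medians from −0.57 to −0.17. Over all genes 23.8% were higher and 22.5% lower. Of 26 genes of glycolysis and hypoxia 4 rose (15.4%) and 7 fell (26.9%, median −0.17), near the background for falls. Of 25 respiratory chain genes 0 rose and 11 fell (44%, median −0.57). Of 19 cholesterol genes 1 rose (5.26%) and 3 fell (15.8%, median −0.24). Of 17 genes of the ATF4 response and serine synthesis 11 fell and 2 rose (median −1.75). The aminotransferase Psat1 went from 1683 to 142 and 97.9 CPM (adjusted p = 3.89e-07, log2 fold change −3.81 with SE 0.25) and asparagine synthetase Asns from 338 to 34.4 and 21.3 CPM. With library totals as the only scaling 3 glycolysis and 5 respiratory chain genes fell. Without day 14 replicate 2, 4 glycolysis genes fell, and without replicate 1, 7 respiratory chain and 5 cholesterol genes. Of 12 immediate early and heat shock genes 4 rose (33.3%) and 3 fell (25%), the latter near the background. The chaperone Hsp90aa1 went from 8662 to 729 and 838 CPM. Interferon response genes rose in 14 of 21 cases and fell in 0 (median 2.47), and 12 rose after day 8. Ifit1, an RNA-binding effector, had 0 counts at days 0 and 8 and 23.9 and 5.69 CPM at day 14, and 19 of the 21 genes were higher in day 14 replicate 1.

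The null cultures of day 8 divide the course in time. Of the 7328 genes called over the whole course 890 moved further in the same direction between days 8 and 14, 98 moved back and 6340 did not pass after day 8. A missing call there does not show that a gene was level. Those that moved further included Dcn, Lum, Csf1r, H19 and Igf2 upward and Ezh2 and Ccnb1 downward, and those that moved back included Postn, Nnat and Fli1.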

How the data were processed

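RNA was sequenced in 10 libraries. The table deposited by the authors gives whole read counts for each Ensembl gene, with no normalization. Per the submitters' processing notes, TopHat, HTSeq, DESeq and the mm9 build were used. The sources used here give no version, annotation or strand setting. Genes that overlap, lie antisense or have near-identical copies are therefore uncertain. Symbols matched 30946 of 36191 IDs. Chromosomes came from GENCODE vM21 (GRCm38) and promoters from RefSeq (GRCm38.p6), so no coordinates of the counted genes are given.

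Counts were fitted with edgeR 4.0.16 in R 4.3.3 (filterByExpr with minimum count 10, TMM, quasi-likelihood, 6 groups, 4 residual degrees of freedom, biological coefficient of variation 0.214). Tests were two-sided with Benjamini-Hochberg adjustment over all 15819 genes, and SE was taken as the size of the log2 fold change divided by root F. Day 14 was compared with day 0 in each genotype, the difference of the net changes was tested in the same fit, and day 14 was compared with day 8 in null cultures. Against 0 counts a fold is a bound from a floor of 3 counts over the group, and with 1 to 3 counts the pooled ratio has an exact 95% interval; both cover counting error only. The scripts were tested on simulated data. The 40 gene lists, the groups and the alternatives were chosen with earlier results of these data known. The text names Rybp, Yaf2, Plagl1, Meg3, Pou5f1, Nanog, Isl1, Nkx2-5, Tnnt2, Myh6 and Ttn. It names the 12 largest rises and the 12 largest falls with at least 50 CPM, and the 5 largest ratios each way between day 14 libraries. From a list it names up to 4 called members with at least 10 CPM, and for many but not all lists the highest member not called. Other members were named after their values were seen. Alternatives were DESeq2 1.42.0, other scalings, filters and thresholds, each day 8 or 14 library left out, a replicate block, fewer libraries and fewer chromosomes.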

Additional observations from a re-analysis of the deposited data

How the results depend on the processing

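Over 20 alternatives, 0 genes called from day 0 to day 14 in the null cells changed direction. Every alternative used the same null day 0 library and day 14 libraries of the main fit, so a change of direction was unlikely from the start. Of 167 called genes among the 208 followed, 147 kept their call under every alternative. Each library of days 8 and 14 was left out in turn, but neither lone day 0 library was. The counts of called members stayed within 1.5 times of the main ones for 23 of the 40 lists under every alternative. Tested against a change of 2-fold, 2283 genes rose and 1862 fell in null cells, 2319 and 1637 in wild type cells, and 184 and 78 between days 8 and 14. Leaving out a library gave 3212 to 4039 higher and 2914 to 3848 lower genes in the null course, and 3019 to 4127 and 2390 to 3566 in the wild type course. For the difference between genotypes DESeq2 called 46 genes above and 27 below and no filter on low counts 120 and 181, while leaving out a library gave 0 to 20 and 0 to 24. Between days 8 and 14 no filter gave 1037 higher and 855 lower genes, the 5 null libraries alone 369 and 220, and leaving out a library 383 to 623 and 230 to 620 (383 and 230 without null day 14 replicate 2, and 359 lower without replicate 1). The causes of these shifts were not tested. Same-numbered replicates did not deviate together in a constant way (correlations from −0.366 to 0.199 over 9287 genes). The correlation was weakly positive between the day 14 libraries of the 2 genotypes (0.199) and negative between null days 8 and 14 (−0.366). The numbers were therefore not taken to pair the samples. With the replicate number as a block 3552 genes rose and 3432 fell in null cells, and 3617 and 3143 in wild type cells. Between days 8 and 14 that block gave 539 and 390, and the difference had 0 calls. A crossed pairing of the null libraries, chosen after seeing the data, gave 74 and 121 calls for the difference and 1149 and 1033 between days 8 and 14. The lone day 0 library and totals of 3311037 and 3951179 counts at day 14 limit what can be read for genes near the floor of 3 counts.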
